A study of Homo sapiens with 4 samples.

Results

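Zinc-finger gene clusters of human chromosome 19 were examined for binding of LARP4 in HEK293 cells. They were defined by position alone, as all stranded intervals lying fully inside 5 windows of the genome build hg19. Window 1 is chromosome 19, 19900000 to 24600000 (bands 19p13.11, 19p12 and 19p11), and window 2 is 36700000 to 38100000 (19q13.12). Window 3 is 44100000 to 45000000 (19q13.31), window 4 is 52300000 to 53800000 (19q13.41 and 19q13.42) and window 5 is 56900000 to 58890000 (19q13.43). The windows span 10.49 Mb, which is 17.8% of the length over which chromosome 19 had clusters. They held 968 of 171755 clusters of replicate 1, 1153 of 191899 clusters of replicate 2 and 19 of 7153 regions of the authors' series-wide list, or 2140 of 370807 intervals in all. No interval crossed a window edge. The rest of chromosome 19 held 10196 and 10711 clusters and 1164 regions.

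KRAB zinc-finger proteins are the largest family of human transcription factors. Their arrays of zinc fingers read DNA sequence, and the KRAB domain recruits the corepressor TRIM28, which leads to silent chromatin, above all at transposable elements. The genes arose by tandem duplication, so they lie in clusters of close relatives, and chromosome 19 holds most of the human clusters. LARP4, a La-related protein, binds poly(A) and poly(A)-binding protein, and is known for protecting the 3′ ends of mRNAs in the cytoplasm. In the RefSeq table for GRCh38.p14, 266 of 1451 protein-coding genes of chromosome 19 (18.3%) carry a zinc-finger symbol. Of these, 213 stand in 18 runs of at least 5 direct neighbours. The longest run has 27 genes, from ZNF737 to ZNF681. That build differs from the build of the intervals, so no interval was assigned to a gene. The runs were not placed against the windows either. The rest of chromosome 19, used below for comparison, may therefore hold zinc-finger runs too. Whether a given interval belongs to a zinc-finger gene or to a gene of another family inside the windows was not analysed here.

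HEK293 is a line derived from human embryonic kidney. In enhanced crosslinking and immunoprecipitation (eCLIP), ultraviolet light (here 400 mJ/cm2 at 254 nm) links proteins to RNA, an antibody, here against LARP4, recovers the protein, and the RNA fragments bound to it are sequenced. A size-matched input, RNA of the same size range taken before the antibody step, is sequenced too. There were 2 LARP4 eCLIP replicates and 2 size-matched inputs, all of unmodified HEK293 cells, and the labels call the replicates biological. Each eCLIP replicate has a list of clusters, with the authors' log2 fold over input and −log10 p of enrichment, which the authors computed within that replicate. The inputs enter only as the denominator of those folds. A cluster is called enriched here when its log2 fold is at least 3 (8-fold) and its −log10 p at least 3.

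Clusters of the zinc-finger windows were rarely enriched. In replicate 1, 20 of 968 were enriched, or 2.07% (Wilson 95% interval 1.34 to 3.17), against 5.01% of all clusters in that list. In replicate 2, 27 of 1153 were enriched, or 2.34% (1.61 to 3.39), against 5.50% of the list. The windows therefore lay below the level of the whole genome, although they sit on a chromosome that lay above it. On the rest of chromosome 19, 1258 clusters (12.3%) and 1485 clusters (13.9%) were enriched. The difference between windows and the rest of the chromosome was -10.3 percentage points in replicate 1 and -11.5 in replicate 2, a mean of -10.9 ± 0.88 (SD, n = 2). It was larger than the spread between the replicates. An exact sign-flip permutation test over 2 replicates cannot give a 2-sided p under 0.5, which is the value it gave for this difference. It also gave 0.5 for median log2 fold, share below input, clusters per Mb and share with a −log10 p of at least 3. The test was not run on differences in regions, loci, overlapping pairs or positions. The intervals treat clusters as independent and cover counting error only.

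The enriched share of the windows depended on the start of window 3. The outermost 50 kb on each side of the windows held 93 and 85 of the clusters but 9 of the 20 and 12 of the 27 enriched ones. All 9 and all 12 lay at the start of window 3, between 44111636 and 44127491, and no other window edge held one. With the outermost 50 kb of every window left out, the enriched share was 1.26% in replicate 1 and 1.40% in replicate 2. Outside the windows but within 1 Mb of an edge, 14.7% of 1796 clusters and 14.8% of 1884 clusters were enriched.

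The lower level was present without any threshold. The median log2 fold over input of the windows was 0.85 in replicate 1 and 0.69 in replicate 2, against 1.70 and 1.69 on the rest of chromosome 19 and 1.28 and 1.30 over the whole lists. The difference from the rest of the chromosome was -0.92 ± 0.11 (SD, n = 2) on the log2 scale. The middle range of the windows ran from 0.11 to 1.70 in replicate 1 and from 0.01 to 1.59 in replicate 2. A log2 fold of at least 1 was reached by 452 (46.7%) and 513 (44.5%) of the window clusters, against 59.4% and 60.9% of all clusters. A log2 fold of at least 3 with any p was reached by 26 (2.69%) and 34 (2.95%), against 6.51% and 7.18% of all clusters. At a log2 fold of at least 4 the windows held 1 and 4 clusters, and their highest values were 4.36 and 4.76. The rest of the chromosome reached 7.07 and 7.63.

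**Figure D1:**
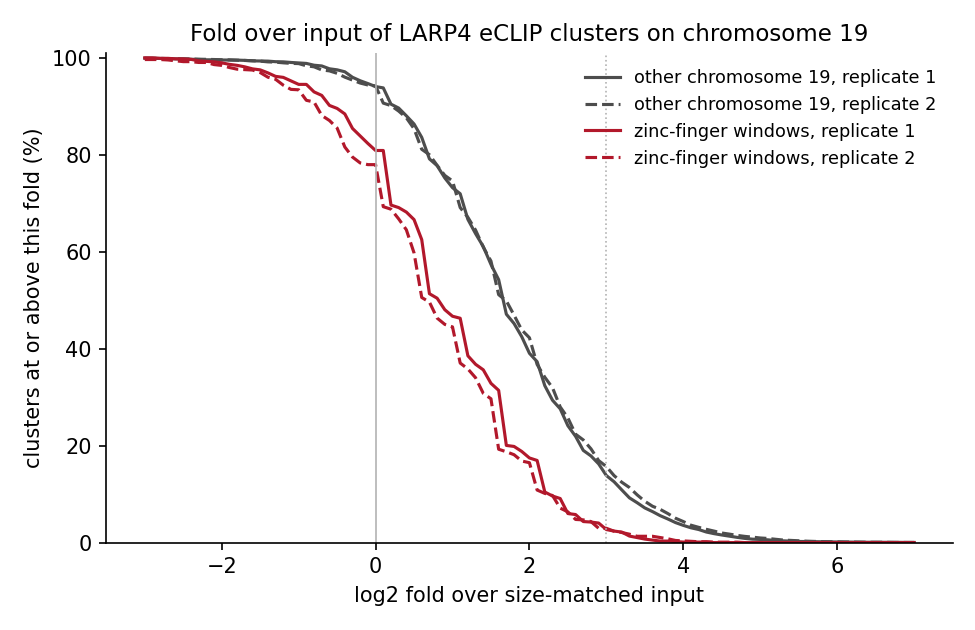
Percent of clusters (y axis) at or above each log2 fold over size-matched input (x axis), for the zinc-finger windows (red) and the rest of chromosome 19 (grey) in replicate 1 (solid) and replicate 2 (dashed). Vertical lines mark log2 folds of 0 and 3. The window curves lie to the left of the others, with medians of 0.85 and 0.69 against 1.70 and 1.69.

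Clusters below input were more common in the windows. In replicate 1, 185 of 968 (19.1%) had a negative log2 fold, against 11.6% of all clusters, and in replicate 2 it was 254 of 1153 (22.0%), against 11.2%. On the rest of chromosome 19 the shares were 5.92% and 5.80%. The difference was 14.7 ± 2.2 percentage points (SD, n = 2). Values below input recurred between the replicates. Among 324 replicate 1 clusters of the windows that overlapped a replicate 2 cluster on the same strand, 67 were below input in replicate 1, 67 in replicate 2 and 44 (13.6%) in both. Elsewhere on the chromosome both values were below input in 125 of 5973 such pairs (2.09%). With independent replicates, 13.9 pairs would be expected in the windows and 10.1 elsewhere. Recurrence beyond that level was thus not particular to the windows. The joint share of the windows also carries their higher share below input in each replicate. The authors' −log10 p is 0 for every negative fold, so it holds no measure of depletion.

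Values that move with read number differed as well. Clusters were sparser in the windows, with 92.3 and 109.9 per Mb against 210.0 and 221.3 on the rest of the chromosome. Among clusters with a log2 fold from 1 to 2, the median −log10 p was 0.48 and 0.54 in the windows and 1.31 and 1.12 elsewhere on the chromosome. At like folds the −log10 p of the windows was therefore lower. A −log10 p of at least 3 was reached by 56 (5.79%) and 62 (5.38%) window clusters, against 14.2% and 13.8% of all clusters and 33.1% and 33.2% on the rest of the chromosome. Within those, the median log2 fold was 2.70 in the windows and 2.70 elsewhere on the chromosome in replicate 1, and 2.78 in both in replicate 2. Passing this limit depends on the fold itself, so these medians are no comparison of the folds of the windows. No window cluster had a −log10 p at the upper limit of 400, which 137 and 129 clusters of the rest of the chromosome had. The number of reads is not in the lists, so low binding and low RNA level or depth cannot be told apart here. The part of depth in the lower enriched share was not tested. The sources used here do not say how reads that match several related zinc-finger genes were placed.

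The same fold value often stood in many clusters. In replicate 1 the log2 folds of the 968 window clusters took 161 distinct values, and the most frequent, 0.11, stood in 109 of them (11.3%). In replicate 2 there were 193 distinct values, with 119 clusters (10.3%) at 1.59. The most frequent value covered 5.78% and 5.94% of clusters on the rest of the chromosome, and 10.1% and 10.6% over the whole lists. The whole lists were thus closer to the windows in this than the rest of the chromosome was.

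The 5 windows were not alike. Windows 3 and 4 held most of the enriched clusters. In window 3, 10 of 159 (6.29%) and 15 of 173 (8.67%) clusters were enriched, and in window 4, 8 of 89 (8.99%) and 7 of 133 (5.26%). In window 5, which had the most clusters, 2 of 434 (0.46%) and 1 of 496 (0.20%) were enriched. Window 1 had 0 of 141 in replicate 1, which allows a share of up to 2.13% at 3 counts, and 4 of 180 (2.22%) in replicate 2. Window 2 had 0 of 145 and 0 of 171, which allows up to 2.07% and 1.75%. The enriched shares of windows 3 and 4, at 7.48 ± 1.68% and 7.13 ± 2.63% (SD, n = 2), did not differ beyond their spread, and neither did those of window 1 (1.11 ± 1.57%) and window 5 (0.33 ± 0.18%).

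The median log2 folds followed the same division. They were 0.55 ± 0.03 in window 1, 0.65 ± 0.07 in window 2, 0.65 ± 0.07 in window 5, 1.21 ± 0.04 in window 4 and 1.22 ± 0.30 in window 3 (SD, n = 2). Windows 1, 2 and 5 lay below windows 3 and 4 in each replicate. Window 1 was the lowest in both, windows 2 and 5 had equal medians, and windows 3 and 4 did not differ beyond their spread. Every window lay under the medians of the rest of the chromosome in both replicates. Against the whole lists (1.28 and 1.30), window 3 was higher in replicate 1, at 1.43, and lower in replicate 2, at 1.01. All other windows were lower in both. The share below input was highest in window 1, at 31.9% and 29.4%, and lowest in window 4, at 7.87% and 10.5%. Windows 2, 3 and 5 had 21.4% and 28.7%, 9.43% and 15.0%, and 20.0% and 22.6%. All of these exceeded the values of the rest of the chromosome. Over the whole lists the shares were 11.6% and 11.2%, above those of window 4 in both replicates and of window 3 in replicate 1.

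**Figure D2:**
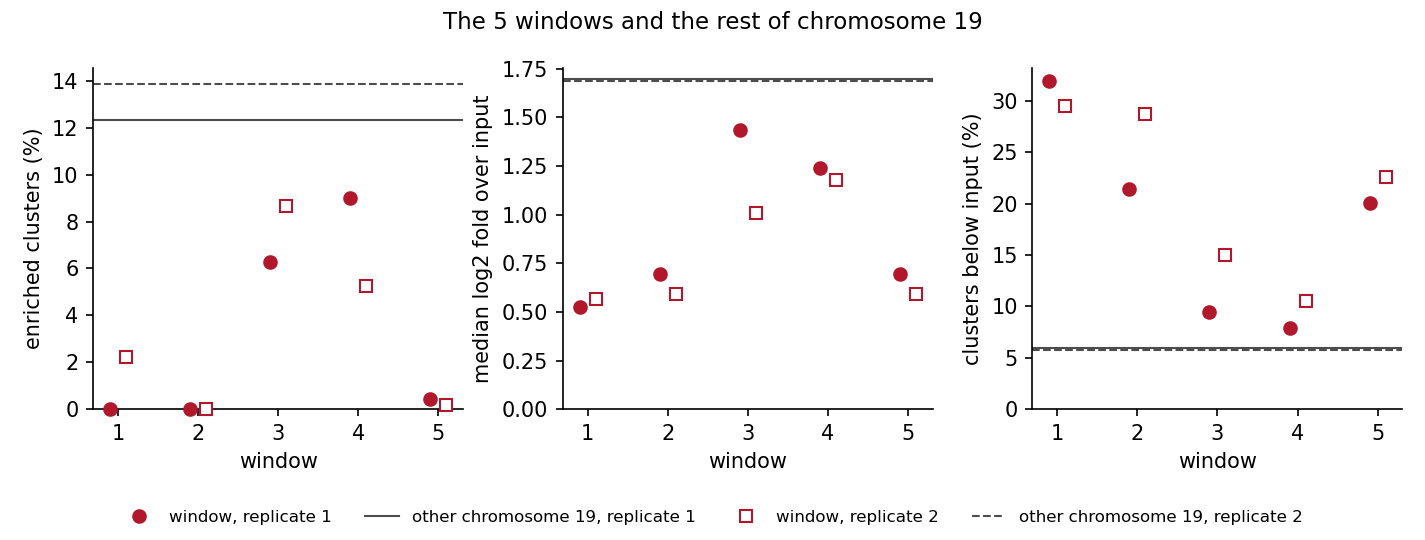
Enriched clusters in percent, median log2 fold over input and clusters below input in percent (y axes) for windows 1 to 5 (x axes), with replicate 1 as filled circles, replicate 2 as open squares and the rest of chromosome 19 as a solid (replicate 1) and a dashed (replicate 2) line. All windows lie under the lines in the first pair of panels and over them in the last, and windows 3 and 4 lie nearest to them.

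Windows also differed in density and strand. Window 1, the longest at 4.7 Mb, had 30.0 and 38.3 clusters per Mb, while window 5 had 218.1 and 249.2, above the rest of the chromosome in each replicate. The low enriched share of window 5 thus stood beside a high density of clusters, but its −log10 p values were low. A value of at least 3 was reached by 1.61% and 1.41% of its clusters, and the highest were 5.88 and 6.41. The part of depth in this was not tested. In window 5, 80.6% and 78.4% of clusters lay on the plus strand, and in window 1, 67.4% and 67.8%. In windows 2, 3 and 4 the plus strand held between 39.1% and 54.4%. Over all windows it held 66.1% and 63.9%, and over the rest of the chromosome 54.2% and 55.0%.

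The authors' series-wide list, in which every log2 fold is above 3, named 19 regions in the windows, or 1.61% of its 1183 regions on chromosome 19. By window, 2 lay in window 1, 0 in window 2, 11 in window 3, 5 in window 4 and 1 in window 5. They make 0.896 regions per 100 clusters of both replicates, against 5.57 on the rest of the chromosome. In the whole series, 7153 regions stood beside 171755 clusters of replicate 1 and 191899 of replicate 2, a ratio between both values. The authors' log2 fold of the 19 ran from 3.14 to 4.18 with a median of 3.59, and 1 of them (5.26%) reached 4. On the rest of the chromosome the median was 3.69, the highest 6.85, and 374 regions (32.1%) reached 4. The longest-overlapping cluster was enriched in both replicates at 13 of the 19 (68.4%), against 76.9% elsewhere on the chromosome. Their sequences and genes were not analysed here.

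Ranked by the lower of both replicate values, the first region lay on the minus strand of window 3 at chromosome 19, 44111636 to 44111720. It stood at a log2 fold of 3.69 in replicate 1 and 4.10 in replicate 2, or 3.89 ± 0.29 (SD, n = 2), with −log10 p of 44.9 and 47.5. It belongs to a locus from 44111636 to 44112154, a locus being a run of clusters on 1 strand ended by a gap of over 5 kb. All 8 clusters of this locus, 3 in replicate 1 and 5 in replicate 2, were enriched. Its other regions, at 44111977 to 44112064, 44112071 to 44112109 and 44112110 to 44112154, had 3.57 ± 0.43, 3.26 ± 0.06 and 3.27 ± 0.08, and the last pair share 1 replicate 1 cluster. Both replicates were thus at least 9.29-fold above input at each of the 4 regions.

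The neighbouring minus-strand locus, 44123710 to 44130338, had the most regions of any locus in the windows, with 6. Of its 15 clusters, 6 of 9 in replicate 1 and 5 of 6 in replicate 2 were enriched. The region at 44127057 to 44127103 had log2 folds of 3.53 and 3.92. Those at 44126851 to 44126924 and 44126982 to 44126988 had 3.35 and 3.85, and 3.36 and 4.18. Within this locus the replicates were farthest apart at 44126771 to 44126841, with 2.90 and 4.39, where replicate 1 did not reach the limit. At 44126930 to 44126948 they were 3.05 and 4.18, with the replicate 2 cluster of the region at 44126982, and at 44123710 to 44123749 they were 3.004 and 3.28. Replicate 2 was the higher at all 6. These 10 regions lie between 11.6 and 27.1 kb from the start of window 3, so 10 of the 19 regions stand near a window edge. Whether both loci, and the window 4 locus described next, are zinc-finger genes was not analysed here, and the 3 loci together hold 14 of the 19 regions. Between both loci, at 44118418 to 44118586, replicate 2 had 2 enriched clusters, at 3.25 and 3.30, with overlapping replicate 1 clusters at 2.46 and 2.76.

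Of the 5 regions of window 4, 4 lay at the 3′ end of 1 plus-strand locus, 52714627 to 52729635. The touching regions at 52729230 to 52729285, 52729286 to 52729397, 52729398 to 52729488 and 52729489 to 52729578 averaged 3.26 ± 0.16, 3.62 ± 0.27, 3.58 ± 0.10 and 3.26 ± 0.20 on the log2 scale (SD, n = 2). Their −log10 p values, from 24.0 to 64.8 in the replicates, include the highest of all windows. The highest window fold of replicate 2, 4.76 at 52729593 to 52729635, followed them and overlapped no cluster of replicate 1. The fold was higher towards the 3′ end of this locus. In 5 equal parts of its length from the 5′ end, the mean log2 fold was 1.74, 1.96, 2.45, 2.57 and 3.25 in replicate 1, and 1.82, 2.14, 2.11, 2.49 and 3.25 in replicate 2. None of its 55 clusters lay below input.

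The other 5 regions, at 4 sites, had a replicate under a log2 fold of 3. In window 1, the touching pieces at 21623436 to 21623450 and 21623451 to 21623465, on the plus strand, each had 2.70 in replicate 1 and 3.64 in replicate 2. They fill an isolated locus of 32 bases. On the minus strand of window 3, 44235486 to 44235623 had 2.70 and 3.87. On the minus strand of window 4, 52835162 to 52835184 had 3.43 and 2.88, in a locus of 23 bases with 3 clusters. The one region of window 5, on the minus strand at 58596057 to 58596162, had 4.36 and 2.82, the widest gap of the 19. A second replicate 1 cluster that overlaps the window 3 region in part, at 44235578 to 44235776, had 3.92.

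**Figure D3:**
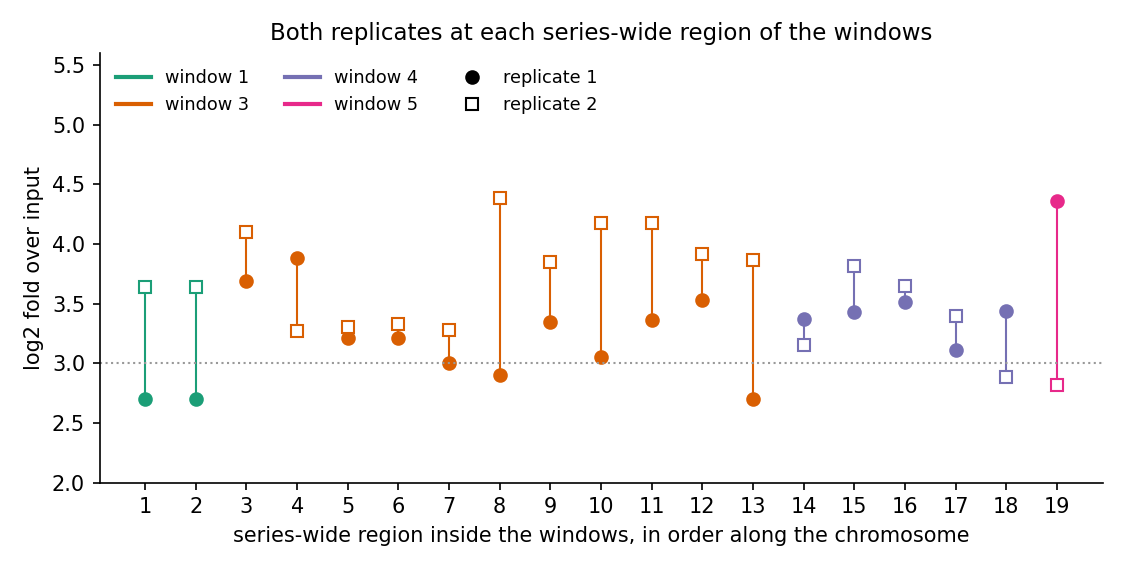
Log2 fold over input (y axis, from 2) of the overlapping cluster in replicate 1 (filled circle) and replicate 2 (open square) at each of the 19 series-wide regions of the windows (x axis, in order along the chromosome), coloured by window. The dotted line marks a log2 fold of 3, and 6 regions have a replicate under it.

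Enriched clusters outside the loci of these regions were few. Of the 20 enriched clusters of replicate 1, 17 overlapped a region and all 20 lay in a locus with one. Of the 27 in replicate 2, 16 overlapped a region and 22 lay in such a locus. Loci without a region held 901 clusters of replicate 1, of which 0 were enriched, which allows up to 0.333%, and 1085 of replicate 2, of which 5 (0.461%) were. Besides the pair between the window 3 loci, these 5 were at 20236083 to 20236170 (3.10, plus strand), 22877620 to 22877712 (3.76, minus strand) and 44472507 to 44472612 (3.82, plus strand). Outside the loci with a region the median log2 fold was 0.70 and 0.59. The series-wide list belongs to these same replicates and holds only log2 folds above 3. Leaving out its loci therefore takes out enriched clusters by choice. The shares and the limit for the other loci are no independent estimate.

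Enriched calls recurred between replicates in some loci of the windows, but few clusters had a partner. Of the window clusters, 33.5% (30.6 to 36.5) of replicate 1 and 28.7% (26.2 to 31.4) of replicate 2 overlapped one of the other replicate, against 58.6% and 56.0% on the rest of the chromosome. Of 19 enriched replicate 1 clusters with a partner, 14 (73.7%, 51.2 to 88.2) had an enriched partner, and in the other direction it was 12 of 22 (54.5%, 34.7 to 73.1). On the rest of the chromosome the shares were 74.7% and 65.5%, inside both intervals. In the windows, all 14 and all 12 lay in the loci at 44111636 to 44112154, 44123710 to 44130338 and 52714627 to 52729635. By longest overlap, no enriched call recurred elsewhere in the windows. With any overlapping partner counted, 15 of the 19 replicate 1 clusters had an enriched one. Enriched clusters at 44235578 to 44235776 in replicate 1 and 44235486 to 44235623 in replicate 2 overlap in part. Whether any of these loci are zinc-finger genes was not analysed here. Across the 324 overlapping pairs, log2 folds of the replicates had a Pearson's r of 0.72 and a Spearman's rho of 0.66, against 0.78 and 0.74 over 5973 pairs elsewhere on the chromosome. The spread of 1 replicate's value within a pair (SD) was 0.72 in the windows and 0.60 elsewhere. Pairs are not independent replicates, since neighbouring clusters share a transcript and library.

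By locus, 7 of 290 loci inside the windows held a series-wide region, or 2.41% (1.17 to 4.90), against 273 of 1387 (19.7%) on the rest of the chromosome. Another 5 loci crossed a window edge and are left out of both counts. Window loci were smaller, with 3 clusters (median, both replicates summed) against 7, and 1.47 kb against 3.21 kb. Locus size moves with the share of loci with a region, so the shares were compared at like size. With 1 cluster, no locus of either group held a region. At 2 to 5 clusters, 2 of 120 window loci (1.67%) and 14 of 383 others (3.66%) did. At 6 to 10 clusters it was 1 of 49 (2.04%) and 25 of 213 (11.7%). At 11 to 20 clusters, 1 of 24 window loci (4.17%) and 75 of 244 others (30.7%) held a region. At 21 to 50 clusters it was 2 of 16 (12.5%) and 114 of 224 (50.9%), and above 50 it was 1 of 6 (16.7%) and 45 of 86 (52.3%). The intervals of the window shares at 2 to 5 clusters (0.46 to 5.87) and above 50 (3.01 to 56.4) contain the shares of the others. Those from 6 to 50 clusters lie below them. With the shares of the rest of the chromosome in each class of cluster number, the window loci would have had a share of 9.93%, or 28.8 loci.

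**Figure D4:**
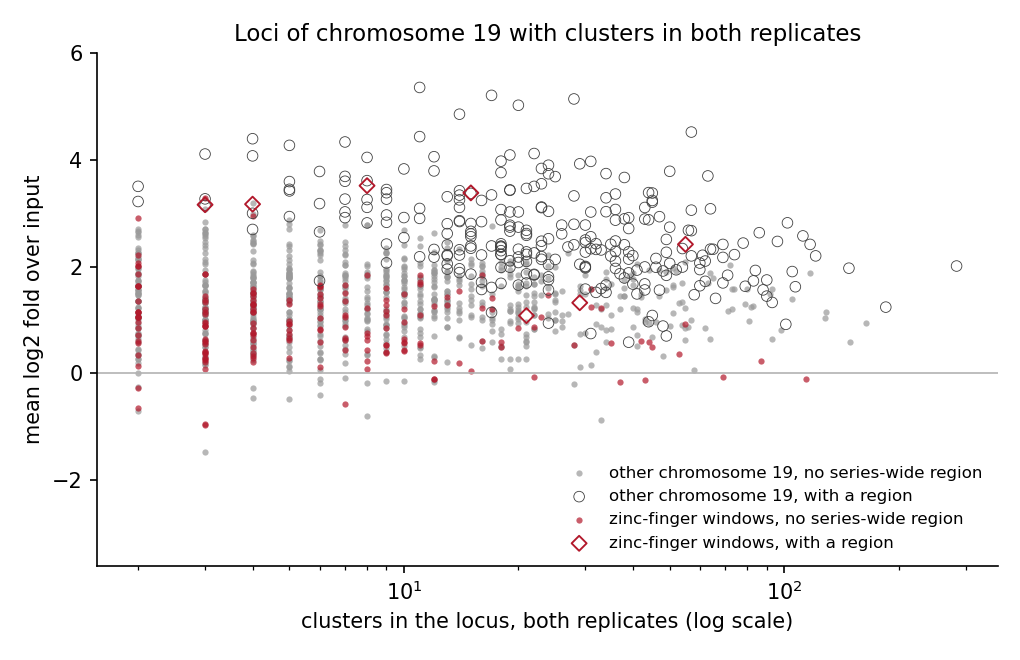
Mean log2 fold over input over both replicates (y axis) against the number of clusters of the locus (x axis, log scale), for those loci of chromosome 19 in which each replicate has a cluster. Red marks the zinc-finger windows, grey the rest, and larger open symbols are loci with a series-wide region, of which the windows have 7.

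The loci with the most clusters in the windows were close to input. The largest, on the plus strand of window 5 from 58315092 to 58379851, had 114 clusters over 64.8 kb and a mean log2 fold of 0.03 in replicate 1 and -0.24 in replicate 2. Of its clusters, 24 of 53 and 31 of 61 lay below input, and the highest reached 2.70 and 2.01. The next, also on the plus strand of window 5 (58740845 to 58798744), had 87 clusters with mean log2 folds of 0.30 and 0.18. In window 1, the largest (24231136 to 24270396, plus strand, 69 clusters) had 0.04 and -0.17. In window 2, it was 37816100 to 37843854 (plus strand, 43 clusters) with 0.11 and -0.37.

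Other large loci had higher means. In window 3, the locus with the most clusters (44759478 to 44802894, minus strand) had 55 clusters, mean log2 folds of 0.99 and 0.85 and no enriched cluster. The window 4 locus that held 4 regions also had 55 clusters, with 2.36 and 2.47. These 2 loci had the same number of clusters and differed by over 1 log2 unit in each replicate. Among the 20 loci with the most clusters, which held 42.8% of the window clusters, 13 had a mean log2 fold under 1 in both replicates, 16 lay on the plus strand, 13 lay in window 5 and 2 held a region. Over the 184 window loci in which each replicate has a cluster, the median of the mean log2 fold was 0.93, against 1.61 over 1070 other loci of the chromosome. The mean was below 0 in 12 of them (6.52%), against 18 (1.68%) of the others.

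Overlapping pairs were ordered by the higher of their 2 log2 folds, and the 5 lowest were in windows 5 and 2, all on the plus strand. At 58759655 to 58759716 the log2 folds were -2.26 and -2.69, a mean of -2.47 ± 0.31 (SD, n = 2), or 5.56-fold below input. At 58794376 to 58794403 they were -2.11 and -2.65, at 58356359 to 58356423 they were -2.47 and -2.05, and at 58759138 to 58759192 they were -1.96 and -3.21. The next pair, in window 2 at 36716547 to 36716576, had -1.79 and -2.51. By their mean the order changes: the pair at 58759138 is the lowest, at -2.59, and one at 58808801 to 58808840 in window 5, at -2.18, precedes that of window 2, at -2.15. Of the 5, 3 lie in the second largest locus of window 5 and 1 in its largest. The window 2 pair lies in a locus of 37 clusters, 36706058 to 36729515, with mean log2 folds of -0.05 and -0.29. In all, 3 of 324 pairs of the windows (0.93%) were at a log2 fold of -2 or lower in both replicates, against 23 of 5973 (0.39%) on the rest of the chromosome, and 46 pairs (14.2%) were at 2 or higher, against 38.8%.

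The position of regions along loci differed between loci. In the locus from 44111636 to 44112154, where all clusters were enriched, the 4 regions lay at 0.92, 0.26, 0.12 and 0.04 on a scale from 0 at the 5′ to 1 at the 3′ end, a mean of 0.34. That locus has no cluster to compare them with and is left out of what follows. In the 4 loci that held both a region and clusters that were not enriched, with at least 5 clusters each, the mean position on the same scale was 0.88 for regions and 0.54 for not-enriched clusters. The difference was above 0 in all 4, from 0.10 in the 6-region locus of window 3 to 0.57 in the locus of window 4. It was 0.29 in the locus at 44235369 to 44249116 and 0.41 in that at 58595486 to 58609580. On the rest of the chromosome it had a mean of 0.22 and was above 0 in 196 of 249 loci (78.7%). With 4 loci, the size of the window value was not compared further.

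Without the enriched threshold, the rise towards the 3′ end was not stable in the windows. The mean log2 fold of the 3′ side of a locus minus that of the 5′ side was -0.03 in replicate 1 (85 loci) and 0.11 in replicate 2 (97 loci), so its direction differed between replicates. On the rest of the chromosome it was 0.20 in both. The 3′ side was higher in 51.8% and 57.7% of window loci and in 61.2% and 60.3% of the others. In 5 equal parts of the locus length, from the 5′ end, window clusters had mean log2 folds of 0.80, 0.64, 1.01, 0.63 and 1.12 in replicate 1 and 0.53, 0.54, 0.74, 0.64 and 0.90 in replicate 2. The last part was the highest in each replicate, with 11 of 211 (5.21%) and 10 of 248 (4.03%) clusters enriched, against 5.01% and 5.50% of all clusters in the lists. Of the enriched window clusters in that part, 6 in replicate 1 and 5 in replicate 2 came from the locus at 52714627 to 52729635 alone. The rest of the chromosome had 19.3% and 21.8% enriched in its last part.

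**Figure D5:**
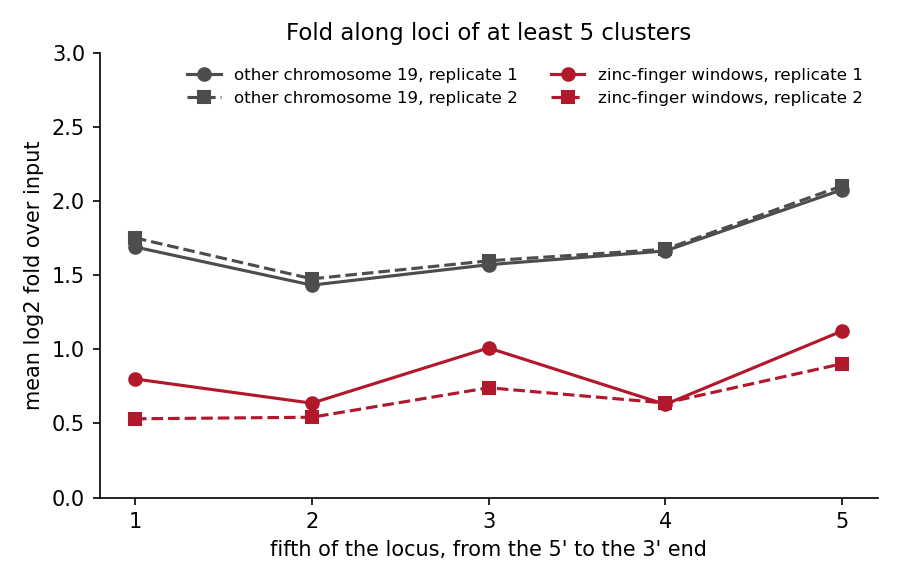
Mean log2 fold over input (y axis) of clusters in 5 equal parts of the locus length (x axis, from the 5′ to the 3′ end), for loci of at least 5 clusters, with the zinc-finger windows in red, the rest of chromosome 19 in grey, replicate 1 solid and replicate 2 dashed. The last part is the highest in every line, at 1.12 and 0.90 in the windows and 2.08 and 2.10 elsewhere, and the parts do not hold the same loci.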

How the data were processed

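Per the labels' protocols, LARP4 eCLIP and size-matched input libraries were made from HEK293 cells and went through an eCLIP pipeline. Per the submitters' processing notes, the tools include STAR 2.7.6a, cutadapt 1.14, SAMtools 1.6 and UMI-tools 1.0.0, on build hg19. Not given in the sources used here are the peak caller, its thresholds and how the series-wide list combines the replicates. The authors deposited, for each interval, a −log10 p with an upper limit of 400 and a log2 fold over input. The lists have no header, so both meanings were read from the values. Read depth is unknown, so single folds carry no counting interval.

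Starts were converted to 1-based positions, and the windows were applied to both strands. Overlap means at least 1 shared base on 1 strand, with the longest overlap as partner. Loci are runs of clusters of both replicates on 1 strand, closed where the next cluster is over 5 kb away. The comparisons are descriptions with the 2 replicates as the unit. Named regions are the 10 ranked highest by the lower of their 2 replicate values, the highest of each window, the locus of each window with the most regions and the 5 lowest recurring pairs. The 2 regions left, loci with the most clusters and the enriched clusters outside regions were added after their values were seen. The members and limits were chosen with earlier results of these data known. Overlap, locus and position functions were tested on simulated data. Bands are from circlize 0.4.16 (hg19). Tables were computed in Python 3.11.15 with pandas 2.3.3, numpy 2.4.6 and SciPy 1.17.1 and drawn in matplotlib 3.10.9.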

Additional observations from a re-analysis of the deposited data

How the results depend on the processing

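No paired analysis was possible because only the 2 eCLIP replicates have lists, beyond the pairing already used: windows minus the rest of chromosome 19 is taken within each replicate, and values are means of both. Of 75 alternatives run, 48 changed a value by less than its spread or interval, or a count by less than 1.5 times, 26 moved it further without a change of sign, and 1 changed its sign. The last was the median log2 fold over only those clusters whose −log10 p reaches 3, with a difference of 0.00059, a selection that depends on the fold itself. Some of the 48 could not have come out otherwise. No interval crosses a window edge, so counting every interval with at least 1 base in a window changed nothing. Where a value is the mean of both replicates, leaving out 1 of them cannot move it beyond their SD. The comparison with flanks within 1 Mb and the windows cut by 50 kb were chosen after seeing the data. The comparison of zinc-finger genes with other genes was not run, as it needs an hg19 annotation. The enriched share, -10.9 percentage points, was -11.9 without window 3, -9.44 without window 5, -14.3 over clusters with a partner, -7.75 with 1 value per locus, and -12.6 against flanks within 1 Mb. It was -3.72, -22.5 and -27.4 at log2 fold limits of 4, 2 and 1, -9.72 at a −log10 p of at least 5 and -11.9 with no limit on p. Without 1 replicate it ran from -11.5 to -10.3. The median log2 fold, -0.92, was -1.05 without window 3, -0.78 without window 5 and -0.65 per locus, and from -1 to -0.85 without 1 replicate. The share below input, 14.7 percentage points, was 8.52 per locus, and from 13.2 to 16.2 without 1 replicate. Clusters per Mb, -114.6, were -60.2 without window 1, -122.4 without window 3, -145.6 without window 5, and from -117.8 to -111.4 without 1 replicate. Regions per 100 window clusters, 0.896, were 0.447 without window 3, 1.51 without window 5 and 0.047 at an authors' log2 fold of at least 4. Recurrence of enriched clusters was 0% when log2 folds had to reach 4, with 1 pair. The position difference, 0.34, was from 0.22 to 0.33 with enriched clusters of 1 replicate. The share of loci with a region, -17.3 percentage points, was -7.68 with a gap of 1 kb, -25.9 with 10 kb, -21.7 over loci with clusters in both replicates and -7.52 within classes of cluster number.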
